A study of Mus musculus with 8 samples.

Results

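The 10 genes followed here mark cytotoxic and intraepithelial lymphocytes, and were read in RNA-seq libraries of mouse colon: Cd8a, Cd8b1, Gzma, Gzmb, Prf1, Nkg7, Cd160, Itgae, Klrd1 and Ccl5. They were taken by name, through their Ensembl identifiers, as 10 of the 26008 genes listed. The libraries came from colonic biopsies of male bone marrow chimeras, 4 with Penk-/- and 4 with Penk+/+ hematopoietic cells, and each mouse gave 1 library. All recipients were wild-type C57BL/6JRj males that were lethally irradiated at 7 weeks of age and grafted with marrow of males aged 9 to 11 weeks, either knockouts for Penk, the gene of the enkephalin precursor, on a B6.129 background or their wild-type counterparts, and RNA was prepared 18 weeks later. Non-hematopoietic cells therefore carried intact Penk in both groups, and the share of donor cells among gut lymphocytes was not measured in these mice.

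The gut epithelium holds resident T lymphocytes that sit between the epithelial cells and are armed for killing. They dock on E-cadherin of the epithelium through an integrin whose alpha chain is encoded by Itgae, many carry CD8, and they store granzymes and perforin in granules that are released onto infected or transformed cells. Many of these cells in the intestine carry a CD8 made of a pair of alpha chains, whereas conventional cytotoxic T cells carry an alpha and a beta chain, encoded by Cd8a and Cd8b1. None of the 10 genes is exclusive to such cells: Itgae is also used by some dendritic and regulatory T cells, Klrd1 and Nkg7 by natural killer cells, and Ccl5 by other activated leukocytes.

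The stretches just before the start sites of 6 of these genes are given first, as examples that hold at least 1 of the motifs below. Those of Nkg7 and Klrd1, which also hold a match, and of Cd8a and Cd8b1, which hold none, are not printed. Each is the 200 bases before the start of the canonical transcript in GRCm39, read in the direction of the gene, and capitals mark matches to 4 short motifs searched on both strands: TGTGGT (the core bound by RUNX factors, which drive the CD8 lineage), GGTGTG (the core bound by T-box factors such as T-bet), a pair of GAAA repeats with 2 bases of any kind between them (an interferon-regulatory-factor element) and TATAAA (the core promoter box of that name).
Gzma, chr13:113237525-113237724, - strand: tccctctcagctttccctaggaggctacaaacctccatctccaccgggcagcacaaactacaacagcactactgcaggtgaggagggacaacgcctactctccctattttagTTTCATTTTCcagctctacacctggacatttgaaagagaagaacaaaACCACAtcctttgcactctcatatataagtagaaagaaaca
Gzmb, chr14:56499718-56499917, - strand: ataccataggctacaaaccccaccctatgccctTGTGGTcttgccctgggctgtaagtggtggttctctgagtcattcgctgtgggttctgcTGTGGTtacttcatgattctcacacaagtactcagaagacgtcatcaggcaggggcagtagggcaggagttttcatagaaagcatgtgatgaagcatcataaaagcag
Prf1, chr10:61133346-61133545, + strand: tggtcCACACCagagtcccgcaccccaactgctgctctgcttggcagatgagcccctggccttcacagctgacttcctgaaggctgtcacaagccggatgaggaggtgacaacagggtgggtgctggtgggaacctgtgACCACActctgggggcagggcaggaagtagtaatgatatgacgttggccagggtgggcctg
Cd160, chr3:96721849-96722048, - strand: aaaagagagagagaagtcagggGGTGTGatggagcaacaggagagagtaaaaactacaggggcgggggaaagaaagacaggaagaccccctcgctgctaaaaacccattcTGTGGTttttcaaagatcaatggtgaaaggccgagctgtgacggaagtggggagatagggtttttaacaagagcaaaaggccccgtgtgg
Itgae, chr11:72981209-72981408, + strand: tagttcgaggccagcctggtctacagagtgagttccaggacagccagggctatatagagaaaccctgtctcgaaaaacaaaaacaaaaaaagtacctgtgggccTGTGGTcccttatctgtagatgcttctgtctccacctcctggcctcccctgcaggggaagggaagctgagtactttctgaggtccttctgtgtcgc
Ccl5, chr11:83421346-83421545, - strand: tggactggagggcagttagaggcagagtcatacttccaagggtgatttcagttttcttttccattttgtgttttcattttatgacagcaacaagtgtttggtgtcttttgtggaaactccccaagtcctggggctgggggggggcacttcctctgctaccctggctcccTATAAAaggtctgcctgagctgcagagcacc
TGTGGT was found in 7 of the 10 stretches (Gzma, Gzmb, Prf1, Nkg7, Cd160, Itgae and Klrd1), and in 9.87% of the 16860 promoters of the same length that were searched. Gzmb held it at 2 places. GGTGTG was present before Prf1 and Cd160 (13.5% of all promoters), the paired GAAA repeats before Gzma (2.44%, on the other strand), and TATAAA before Ccl5 (6.83%). Cd8a and Cd8b1 held none of the 4. A match is a string of letters and not a shown binding site, and no binding was measured here.

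All 10 genes were read in the colon, at low levels. Values are normalized counts, that is, reads per gene divided by a size factor of the library. The libraries held 33.1 M to 50.7 M reads in genes (median 38.5 M), and the deepest was Penk-/- replicate 3. This library and Penk+/+ replicate 4 stood apart by the secretory protein gene Pbsn of the prostate, listed at 105658 and 111024 against 0 to 13425 in the other 6. The differences of the 10 genes, and the correlations between the 6 with a mean of at least 10, are therefore also given without these 2 libraries. Penk itself was listed at 453 to 616 in Penk-/- and 473 to 636 in Penk+/+ chimeras (log2 difference -0.03, adjusted p = 0.957 by limma), and in wild-type recipients its level in whole tissue does not check the genotype of the graft. Leukocyte transcripts were present in every library: Ptprc, the pan-leukocyte CD45 gene, lay between 510 and 1297.

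Itgae was by far the highest, with means of 222 ± 8.83 for Penk-/- and 226 ± 34.7 for Penk+/+ mice (SD, n = 4), and it made up 65.8% of the summed counts of the 10 genes. Its mean stood at percentile 56.1 of all listed genes, whereas those of the other 9 ranged from percentile 8.93 (Prf1) to 36.7 (Klrd1). A mean of 10, the level required for testing, was reached by 6 genes (Cd8a, Gzmb, Cd160, Itgae, Klrd1 and Ccl5). Cd8b1, Gzma, Prf1 and Nkg7 did not, with 45, 29, 20 and 76 reads in all over the 8 libraries. Prf1, the gene of the pore-forming protein perforin, had no read in Penk+/+ replicate 4, which at a depth of 48.0 M reads leaves room for up to 3 reads.

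**Figure D1:**
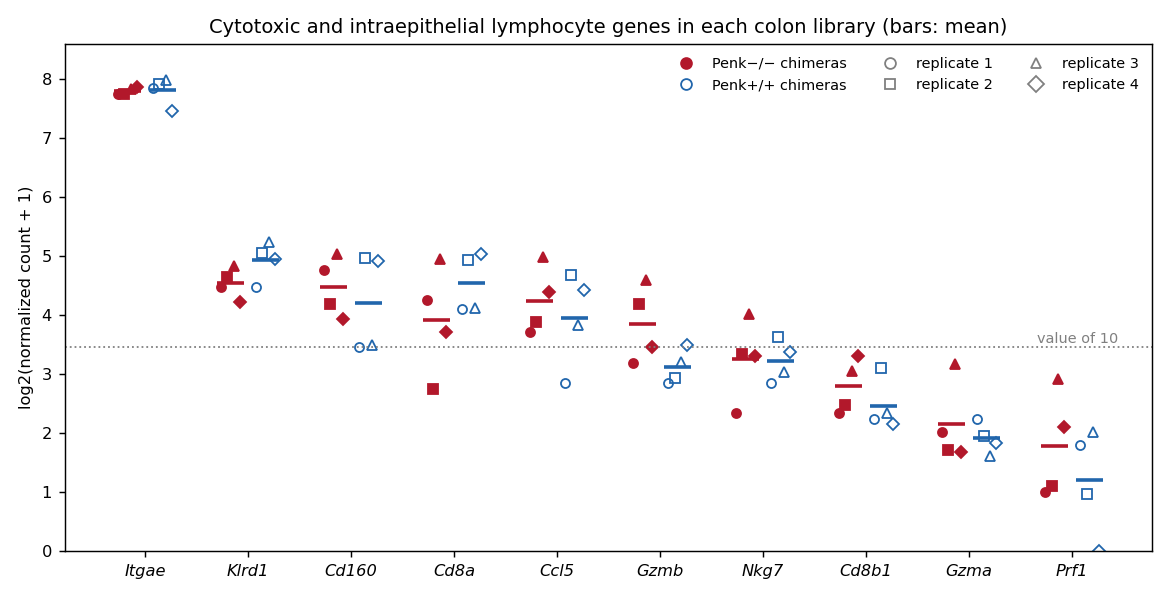
Level of the 10 genes in each colon library, as log2(normalized count + 1) on the vertical axis, with genes ordered by mean. Filled red symbols are Penk-/- and open blue symbols Penk+/+ chimeras, the symbol shape gives the replicate, bars are group means, and the dotted line marks a value of 10; Itgae stands alone near 222 and 226, and in each gene the points of the 2 genotypes overlap.

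Once divided by the length of the canonical transcript, the order of the levels changed. Itgae, which has a long transcript, had 40.8 normalized counts per kilobase on average (32.0 to 46.4 over the 8 libraries), Ccl5 33.0 (11.6 to 57.1) and Klrd1 27.4 (18.4 to 38.2), and these 3 overlapped. Nkg7 followed at 10.1 per kilobase (4.58 to 17.3), with all libraries below the lowest Klrd1 value. Cd160 (8.40), Gzmb (7.82), Cd8a (6.38), Gzma (3.75), Cd8b1 (2.60) and Prf1 (0.911) came next, each overlapping its neighbours in this order. The integrin chain was thus read at 6.40 times the level of Cd8a per kilobase.

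The alpha chain of CD8 exceeded the beta chain. Per kilobase, the mean of Cd8a was 2.45 times that of Cd8b1, and Cd8a was the higher of the pair in 6 of 8 libraries. The exceptions were Penk-/- replicate 2, with a ratio of 0.836 from 5 reads of Cd8a and 4 of Cd8b1, and Penk-/- replicate 4, with a ratio of 0.920 from 11 and 8 reads. In the other libraries the ratio lay between 2.59 and 3.01, apart from 6.19 in Penk+/+ replicate 4. With 3 to 10 reads of Cd8b1 per library, these ratios are coarse.

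The comparison of Penk-/- with Penk+/+ chimeras asks whether loss of enkephalins from hematopoietic cells was accompanied by a change in this transcript set. None of the 10 genes passed the test at an adjusted p of 0.05 (limma on log2(value + 1), Benjamini-Hochberg over 19127 genes), and neither did any other gene, a background of 0%. At an unadjusted p of 0.05, 0 of the 6 genes tested passed, beside 9.63% of all genes (4.3% higher and 5.33% lower in Penk-/-). The libraries of the 2 genotypes overlapped in all 10 genes, where 5.63% of the genes tested and 4.96% of all listed genes did not overlap. Counts in edgeR on the recovered reads were 0 genes at an adjusted p of 0.05 (0%) and 10% at an unadjusted p, of which 4.72% higher and 5.31% lower in Penk-/-, with 1 member (Gzmb) among the higher. DESeq2 on the same reads called 205 genes (1.07%) after adjustment, none of them a member, and 10.1% before it (4.43% higher and 5.71% lower), with 0 members; it gave no adjusted value for Cd8a, Gzmb, Cd160 and Ccl5, whose counts its own filter set aside. The median log2 difference of the 6 genes tested was 0.13, beside 0.01 over all genes tested. It was -0.14 over 5 genes without the 2 libraries with the most Pbsn, where Gzmb (0.61 there) fell below the level required for testing. Of the 6 genes tested, 3 had a log2 difference above 0, beside 51.1% of all genes tested. With the 4 genes below that level, which this share does not cover, it was 7 of 10. Of these 4, Gzma, Prf1 and Nkg7 were below 0 without the same 2 libraries. Gzmb counts among the 6 genes tested through its Penk-/- libraries, as its Penk+/+ mean was 7.84. The median and the count of 3 therefore include a gene selected in part by its difference. In a bulk biopsy, fewer cells of a type and less RNA per cell cannot be told apart.

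**Figure D2:**
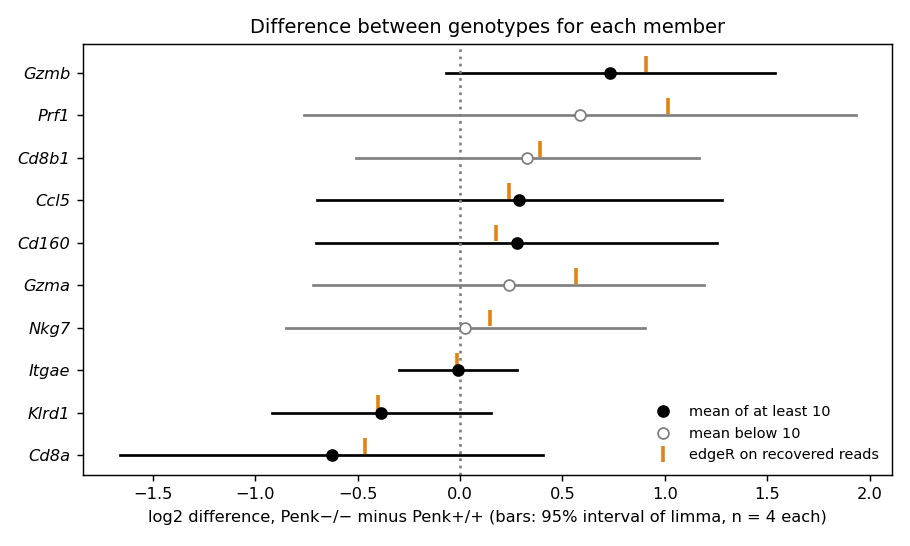
Log2 difference between genotypes for each gene (Penk-/- minus Penk+/+, horizontal axis, n = 4 each). Points are limma estimates on log2(normalized count + 1), bars their 95% intervals, open grey points genes with a mean below 10, and orange ticks edgeR estimates on recovered reads; all 10 intervals include 0, and that of Gzmb reaches from -0.07 to 1.54.

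Among the granule proteins of the set, only Gzmb reached the mean required for testing (11.2), and it did so through its Penk-/- libraries. Its Penk+/+ mean of 7.84 lay below that of Nkg7 (8.55), which was not tested. The test of Gzmb was therefore selected in part by the difference itself. Gzmb (ENSMUSG00000015437, chr14:56496295-56499717, - strand) encodes granzyme B, the protease that triggers apoptosis of target cells. It was listed at 8.08, 17.2, 23.3 and 9.94 in Penk-/- replicates 1 to 4 and at 6.22, 6.66, 8.18 and 10.3 in Penk+/+ replicates 1 to 4. Replicates 2 and 3 of Penk-/- lay above all Penk+/+ libraries and the others within their range. The means were 14.6 ± 6.97 and 7.84 ± 1.84 (SD, n = 4), a log2 difference of 0.73 (SE 0.36; 95% interval -0.07 to 1.54) with an unadjusted p of 0.0692 and an adjusted p of 0.555 by limma. The exact two-sided permutation test over the 70 assignments of the libraries, which can give no p below 0.0286, gave p = 0.143. In reads, 64 were counted in Penk-/- and 32 in Penk+/+ libraries, a ratio of 1.93 after scaling (95% exact interval 1.24 to 3.05, counting error only). The spread within genotypes was 2.03 times the counting variance, so this interval is too narrow for a comparison of mice. edgeR gave a log2 difference of 0.91 with an unadjusted p of 0.0423 and an adjusted p of 0.48. With 1 library left out the log2 difference lay between 0.49, without Penk-/- replicate 3, and 0.96, without Penk-/- replicate 1. Among these fits Gzmb passed the limma test before adjustment only without Penk-/- replicate 1, and after adjustment in none. The log2 difference was 0.61 without the 2 libraries with the most Pbsn. Without Penk-/- replicate 3 the mean fell below the level required for testing.

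The other granule genes were too sparse for a test. Gzma, the gene of the tryptase granzyme A (ENSMUSG00000023132, chr13:113230355-113237524, - strand), was listed at 3.03, 2.29, 7.995 and 2.21 in Penk-/- and 3.73, 2.85, 2.04 and 2.57 in Penk+/+ libraries. All libraries except Penk-/- replicate 3 lay below 4. Its log2 difference was 0.24 with all libraries, -0.10 without Penk-/- replicate 3 and -0.13 without the 2 libraries with the most Pbsn, and the exact permutation p was 0.714. Prf1 (ENSMUSG00000037202, chr10:61133546-61140461, + strand) was listed at 1.01, 1.14, 6.54 and 3.31 in Penk-/- and 2.49, 0.951, 3.07 and 0 in Penk+/+ libraries. This came from 14 reads in Penk-/- and 6 in Penk+/+ chimeras (log2 difference 0.59, exact permutation p = 0.314), and edgeR gave a log2 difference of 1.02. The difference of 0.59 became 0.21 without Penk-/- replicate 3, 0.19 without Penk+/+ replicate 4 and -0.19 without both. Nkg7, which encodes a granule membrane protein needed for degranulation (ENSMUSG00000004612, chr7:43086497-43087678, + strand), was at 4.04, 9.16, 15.3 and 8.84 in Penk-/- and 6.22, 11.4, 7.15 and 9.43 in Penk+/+ libraries. The 2 ranges were nested, with a log2 difference of 0.03 and an exact permutation p of 1. Its sign turned with single libraries, from -0.23 without Penk-/- replicate 3 to 0.33 without Penk-/- replicate 1, and it was -0.18 without the 2 libraries with the most Pbsn.

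The CD8 chains went in different directions in their means, without a difference beyond the spread. Cd8a (ENSMUSG00000053977, chr6:71350411-71356157, + strand) was listed at 18.2, 5.72, 29.8 and 12.2 in Penk-/- and at 16.2, 29.5, 16.4 and 31.7 in Penk+/+ libraries. The lowest value was that of Penk-/- replicate 2, while Penk-/- replicate 3 lay among the 3 highest. The means were 16.5 ± 10.2 and 23.4 ± 8.33 (SD, n = 4), a log2 difference of -0.63 (95% interval -1.66 to 0.41, adjusted p = 0.705 by limma), and the spread within genotypes was 4.69 times the counting variance. With 1 library left out the difference ran from -0.24 without Penk-/- replicate 2 to -0.97 without Penk-/- replicate 3, the only one of these 8 fits with an unadjusted limma p under 0.05, and it was -0.81 without the 2 libraries with the most Pbsn. Cd8b1 (ENSMUSG00000053044, chr6:71299772-71315087, + strand) was at 4.04, 4.58, 7.27 and 8.84 in Penk-/- and 3.73, 7.61, 4.09 and 3.43 in Penk+/+ libraries. Means of 6.18 ± 2.27 and 4.71 ± 1.95 gave a log2 difference of 0.33 (exact permutation p = 0.257), and the spread within genotypes, 0.809 times the counting variance, was no wider than counting alone gives. The difference lay between 0.16 without Penk-/- replicate 4 and 0.54 without Penk+/+ replicate 2, and was 0.14 without the 2 libraries with the most Pbsn.

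Receptors and the epithelial anchor came out as follows. Klrd1, the gene of CD94, the partner chain of NKG2 receptors (ENSMUSG00000030165, chr6:129568677-129575738, + strand), was listed at 21.2, 24.0, 27.6 and 17.7 in Penk-/- and 21.2, 32.3, 36.8 and 30.0 in Penk+/+ libraries. In 3 Penk+/+ libraries it was above all Penk-/- ones, and Penk+/+ replicate 1 was among the lowest. The log2 difference was -0.39 (95% interval -0.92 to 0.15, adjusted p = 0.647 by limma), and with 1 library left out it ran from -0.28 without Penk-/- replicate 4 to -0.54 without Penk+/+ replicate 1, again the only one of the 8 fits with an unadjusted p under 0.05. It was -0.48 without the 2 libraries with the most Pbsn. Cd160, a receptor for the epithelial ligand HVEM (ENSMUSG00000038304, chr3:96706079-96736667, - strand), was at 26.3, 17.2, 32.0 and 14.4 in Penk-/- and at 9.96, 30.4, 10.2 and 29.2 in Penk+/+ libraries. The Penk+/+ values fell into a low and a high pair, and the Penk-/- values lay mostly between them, with a log2 difference of 0.28 (adjusted p = 0.883 by limma). This value ran from 0.025 without Penk+/+ replicate 1 to 0.53 without Penk+/+ replicate 2, and was 0.33 without the 2 libraries with the most Pbsn. The Cd160 model shares 68 bases with Pdzk1 on the opposite strand (mean 10.99). The library kit keeps the strand, but whether the counting used it is not given in the sources used here, so a share of these reads could belong to Pdzk1.

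Itgae (ENSMUSG00000005947, chr11:72981409-73039917, + strand) was the most even of the 10 genes, with 215, 214, 227 and 232 in Penk-/- and 231, 242, 254 and 176 in Penk+/+ libraries. Only Penk+/+ replicate 4 stood below the others. The log2 difference was -0.01 with the narrowest interval of the set, -0.30 to 0.28 (adjusted p = 0.989 by limma), and it lay between -0.13 and 0.050 with 1 library left out and was -0.14 without the 2 libraries with the most Pbsn. Haspin, a kinase gene on the opposite strand within Itgae, had a mean of 261, and its log2 values had an r of 0.24 with those of Itgae. Ccl5, the chemokine RANTES (ENSMUSG00000035042, chr11:83416602-83425942, - strand), was at 12.1, 13.7, 30.5 and 19.9 in Penk-/- and 6.22, 24.7, 13.3 and 20.6 in Penk+/+ libraries. Both groups covered much of the same range, with a log2 difference of 0.29 (adjusted p = 0.879 by limma) that ran from -0.078 without Penk+/+ replicate 1 to 0.53 without Penk+/+ replicate 2, and was 0.20 without the 2 libraries with the most Pbsn.

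How the genes moved together from library to library was described over the 6 genes with a mean of at least 10. Of their 15 pairs, 9 had a Pearson r above 0, and the mean r was 0.17, beside 0.00065 over all pairs of genes tested. With the mean of each genotype subtracted it was 0.27, and over the 45 pairs of all 10 genes 0.25, of which 33 were above 0. Penk-/- replicate 3 lay above the mean in all 10 genes. For the 45 pairs, no mean without this library and no share over all gene pairs is given here, so the 2 values are a description. The 10 pairs without Itgae had a mean r of 0.35 and the 5 pairs with it one of -0.18, but without Penk-/- replicate 3 and Penk+/+ replicate 4 these means were 0.088 and 0.10, so this contrast rests on those 2 libraries. The mean over the 15 pairs was 0.093 without Penk-/- replicate 3 and Penk+/+ replicate 4, and 0.041 without Penk-/- replicate 3 alone.

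No pair passed correction over the 15. The highest was Cd160 with Ccl5, with r = 0.73 (permutation p = 0.0359, adjusted p = 0.538) and rho = 0.83 (permutation p = 0.0154, adjusted p = 0.231) over 8 libraries, r = 0.45 without the 2 libraries farthest from the median of Cd160, and r = 0.60 without the 2 libraries with the most Pbsn. Cd8a with Cd160 followed, with r = 0.58 (permutation p = 0.128, adjusted p = 0.654) and rho = 0.71 (permutation p = 0.0576, adjusted p = 0.432), with r = 0.78 without the 2 farthest libraries and 0.35 without the 2 libraries with the most Pbsn. Cd8a and Gzmb, both products of cytotoxic T cells, had an r of -0.15 (permutation p = 0.713, adjusted p = 0.879) and a rho of 0.12 (permutation p = 0.793, adjusted p = 0.9). This relation was not stable: r was 0.39 without the 2 farthest libraries, 0.19 with genotype means subtracted, and -0.91 over the 6 libraries without the 2 with the most Pbsn. The lowest r was that of Cd160 with Itgae, at -0.47 (permutation p = 0.246, adjusted p = 0.654; rho = -0.31, permutation p = 0.462, adjusted p = 0.693), with -0.18 without the 2 farthest libraries and -0.36 without the 2 with the most Pbsn.

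**Figure D3:**
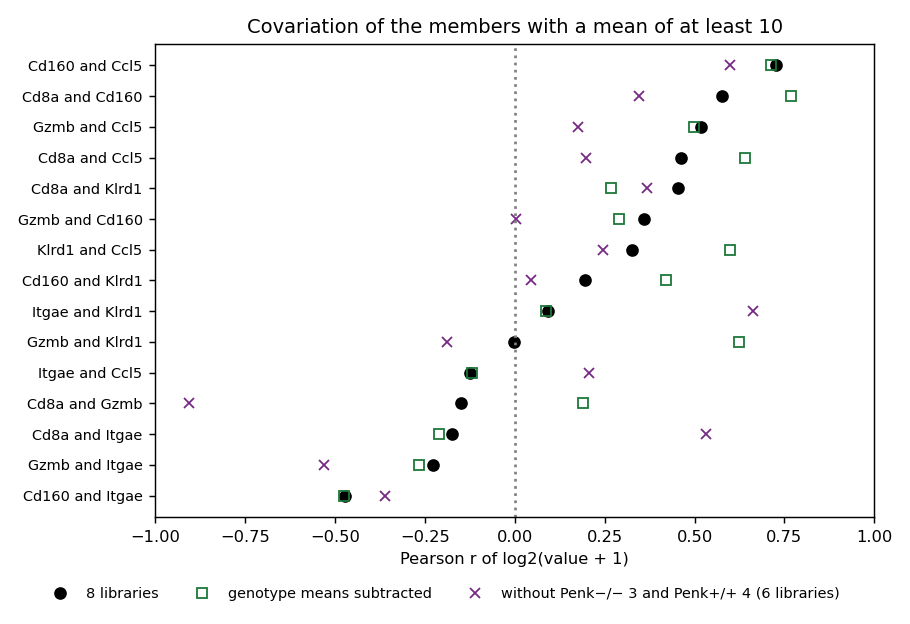
Pearson r of log2(normalized count + 1) for the 15 pairs of the 6 genes with a mean of at least 10. Black circles use 8 libraries, green squares the same after subtraction of genotype means, and purple crosses 6 libraries, without Penk-/- replicate 3 and Penk+/+ replicate 4; Cd160 with Ccl5 is highest at 0.73 and Cd160 with Itgae lowest at -0.47.

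Part of the set was highest in the same libraries. Cd8a, Nkg7, Cd160 and Ccl5 had Penk-/- replicate 3, Penk+/+ replicate 2 and Penk+/+ replicate 4 as their 3 highest libraries, in any order, as had 1.85% of the genes tested. That share does not cover Nkg7, which was below the level required for testing. These 3 libraries were picked from the values of the same genes, so the count is a description. The highest value of 6 genes (Gzma, Gzmb, Prf1, Nkg7, Cd160 and Ccl5) was in Penk-/- replicate 3. Of these, Gzmb, Cd160 and Ccl5 were tested, and 16.3% of all genes tested were highest there. This share does not cover Gzma, Prf1 and Nkg7. The 3 libraries belong to both genotypes, so they do not separate the grafts. Libraries 3 of Penk-/- and 4 of Penk+/+ were also the deepest and those with the most Pbsn, and the part of depth or of that tissue in these values was not tested.

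**Figure D4:**
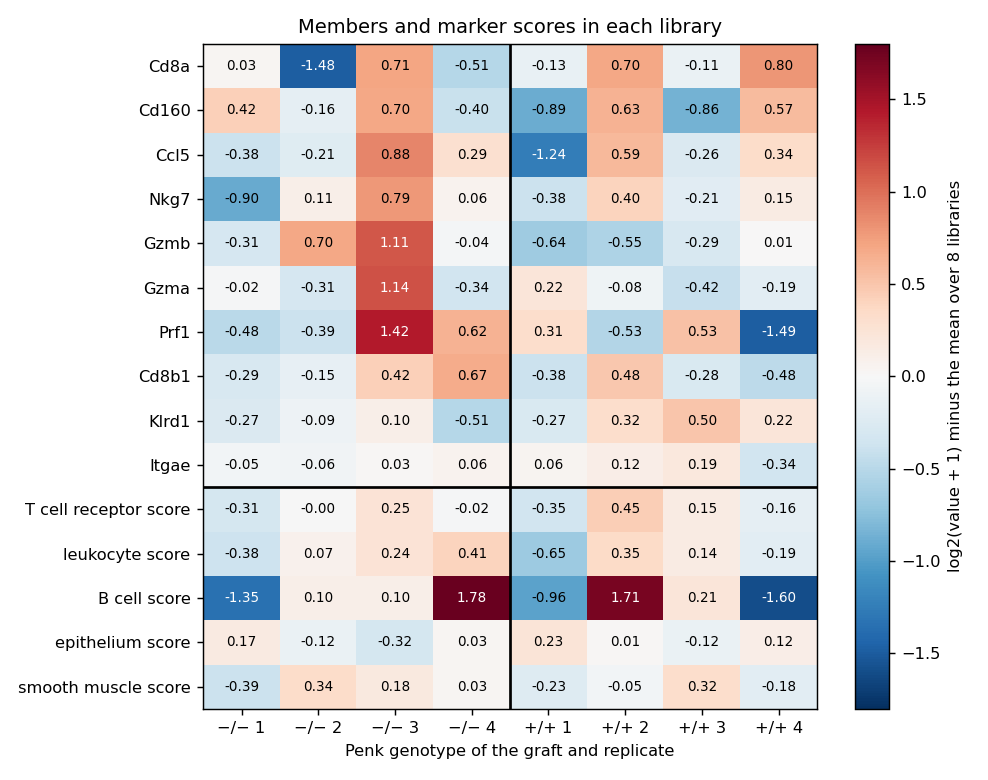
Each cell gives log2(normalized count + 1) minus the mean over the 8 libraries, for the 10 genes (above the line) and, below it, for the mean of 5 lists of markers; columns are libraries, Penk-/- to the left and Penk+/+ to the right of the vertical line. Penk-/- replicate 3 is above the mean in all 10 genes, and Penk+/+ replicate 4 is above it in Cd8a (0.80) and Cd160 (0.57) and below it in Prf1 (-1.49).

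The content of other cells was set beside these values. Relations of the 6 genes with 7 marker scores (means of centred log2 values) and with Pbsn, and of Itgae with Haspin, made a family of 49, in which 4 had an unadjusted p of r under 0.05 and 0 an adjusted one (lowest 0.445). Ccl5 followed the leukocyte score (r = 0.79, permutation p = 0.0182, adjusted p = 0.445; rho = 0.69, permutation p = 0.0694, adjusted p = 0.644), with r = 0.30 without the 2 farthest libraries. Its r with the T cell receptor list was 0.73 (permutation p = 0.0384, adjusted p = 0.493; rho = 0.74, permutation p = 0.0458, adjusted p = 0.644), and 0.52 without the 2 farthest. Its r with macrophage and dendritic cell markers was 0.72 (permutation p = 0.0403, adjusted p = 0.493; rho = 0.64, permutation p = 0.0962, adjusted p = 0.644), and 0.57 without the 2 farthest. Gzmb ran against the epithelial score (r = -0.79, permutation p = 0.0178, adjusted p = 0.445; rho = -0.64, permutation p = 0.0962, adjusted p = 0.644), with r = -0.39 without the 2 farthest libraries. Cd8a had an r of 0.0022 with the leukocyte score (permutation p = 0.996, adjusted p = 0.996; rho = -0.02, permutation p = 0.977, adjusted p = 0.997).

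Marker lists of those cells were compared between the genotypes as well, and no gene of them passed the adjusted test. All 6 leukocyte genes had log2 differences above 0 (median 0.14; summed level 3122 to 5396 in Penk-/- and 2612 to 5313 in Penk+/+), as had 5 of 6 B cell genes (0.31; 253 to 1770 and 228 to 1676) and 7 of 8 macrophage and dendritic cell genes (0.27; 7919 to 9666 and 5933 to 9406). Of 9 epithelial genes, 7 had differences below 0 (median -0.15; 419472 to 584274 and 511364 to 634305). Over all genes tested, 51.1% had a log2 difference above 0. Genes of a list can rise in the same libraries, so these counts are not of independent genes. The B cell score, for instance, was highest in Penk-/- replicate 4 (1.78) and Penk+/+ replicate 2 (1.71). Medians were -0.21 for plasma cells (12106 to 42080 and 12617 to 33759), 0.17 for mast cells (2370 to 2920 and 2250 to 3195, nearly all of it Kit), and 0.06 for smooth muscle (152305 to 258720 and 160312 to 249753). Of the 5 mast cell genes tested, 4 had log2 differences above 0, up to 1.19 for Tpsb2 (adjusted p = 0.529 by limma). Kit had one of -0.07. For 2 neutrophil genes tested the median was 0.12 (3097 to 4559 and 4415 to 6452, nearly all of it Ly6g), for 2 platelet genes 0.20 (435 to 494 and 286 to 413, mostly Pf4) and for prostate genes -0.10 (11639 to 223824 and 10951 to 234532). The lowest prostate sums, in Penk-/- replicate 1 and Penk+/+ replicate 3, were nearly all Spink1 (11545 and 10895), with Pbsn at 0. Spink1 lay between 7372 and 15461 in all libraries. The neutrophil-defining genes S100a8 and S100a9 were below the level required for testing. The platelet sum did not overlap between genotypes, through Pf4 alone (374 ± 37.2 and 282 ± 53.3, log2 difference 0.42, adjusted p = 0.432 by limma; single genes without overlap, 5.63% of those tested), while Itga2b had a log2 difference of -0.02. Of the other marker genes, those with an unadjusted p under 0.05 were Ly6g (log2 difference -0.42), Retnlg (0.66, groups without overlap) and Spink1 (-0.37), with adjusted p = 0.42, 0.475 and 0.488 by limma. The highest means of the marker lists were those of Lcp1, Ms4a1, Igha, Csf1r, Kit, Ly6g, Pf4, Lgals4, Myh11 and Pbsn. The part of these cells in the values of the 10 genes was not tested, beyond the fits with Ptprc or with the epithelial and smooth muscle scores as covariates, in which 0 of the 6 genes tested passed.

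Further genes of the cytotoxic pathway were read in 8 lists, with 120 genes listed, 112 found in the table and 88 tested. After adjustment 0 passed, and at an unadjusted p of 0.05, 2 were higher and 6 lower in Penk-/- chimeras, to be read against 4.3% and 5.33% of all genes. Other granzymes and granule proteins (7 tested, median log2 difference 0.08) gave 0 such genes, and so did the granule release machinery (6 tested, -0.0046), death ligands and effector cytokines (1 tested, -0.10), NK receptors and adaptors (6 tested, 0.16) and the T cell receptor complex (20 tested, -0.05). The highest means in these lists were those of Lamp1, a lysosomal membrane protein of all cells (13193 ± 301 and 13591 ± 514), Stxbp2, a vesicle fusion protein (5465 ± 271 and 5463 ± 389), Tnfsf10, the death ligand TRAIL (654 ± 39.2 and 718 ± 169), Tyrobp, an adaptor of NK and myeloid receptors (370 ± 49.0 and 301 ± 42.4), and Thy1, a T cell and stromal surface protein (570 ± 111 and 486 ± 105, each SD, n = 4). Lyst, a lysosome trafficking regulator, had groups that did not overlap, as had 5.63% of all genes tested (log2 difference 0.11, unadjusted p = 0.104, adjusted p = 0.616 by limma).

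Markers of the T cell as such were low too. Cd3e, a chain of the T cell receptor complex that was singled out after its values were seen, was listed at 6.06, 18.3, 16.0 and 23.2 in Penk-/- and 21.2, 28.5, 32.7 and 22.3 in Penk+/+ libraries. Of the Penk-/- libraries, 3 lay below all Penk+/+ ones, with a log2 difference of -0.80 (unadjusted p = 0.0623, adjusted p = 0.542 by limma). Cd3d and Cd3g had log2 differences of -0.32 and -0.23. Other genes of the same list did not all go down: Cd247 was at 0.04, Trac at -0.0031 and Zap70 at 0.49. Of the 20 genes tested in this list, 8 had log2 differences above 0 and 12 below. Gzmm, a granzyme of innate-like lymphocytes, and Ctsw, a cathepsin of cytotoxic cells, were also picked after seeing their values. They differed in opposite directions, with log2 differences of 0.58 (38.1 ± 5.59 and 26.1 ± 8.20, adjusted p = 0.544) and -0.59 (23.4 ± 6.05 and 36.7 ± 12.9, adjusted p = 0.575 by limma). Trdc, which marks gamma-delta T cells, had means of 2.83 and 3.18 and was not tested.

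**Figure D5:**
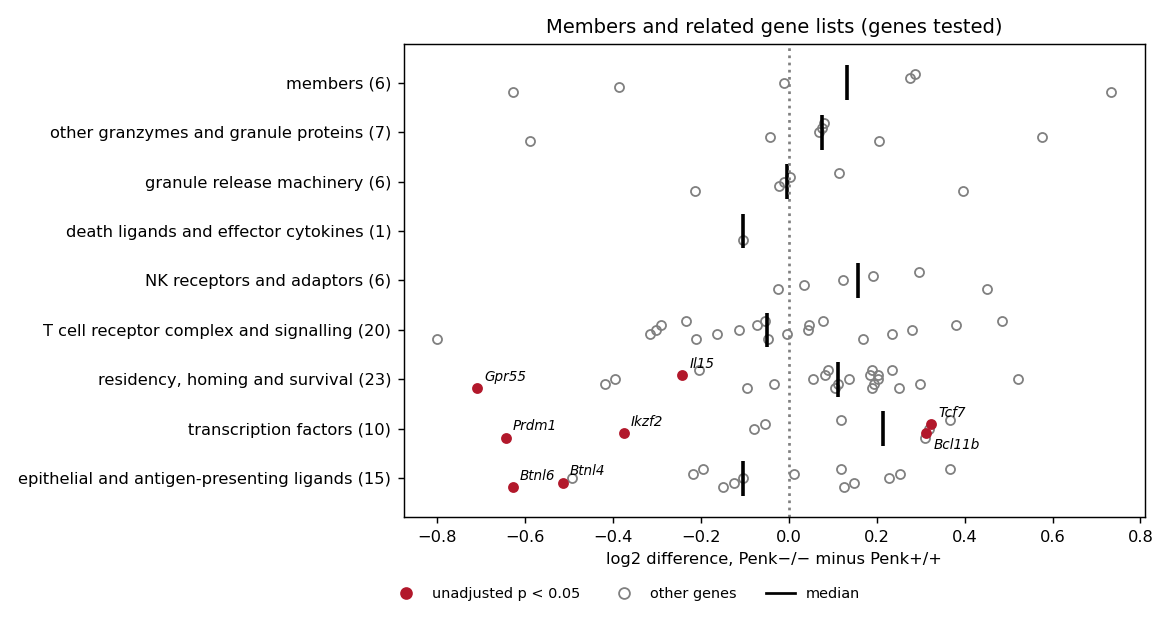
Log2 differences (Penk-/- minus Penk+/+, horizontal axis) of the tested members and of the tested genes in 8 related lists, with the number of genes tested in parentheses. Filled red points have an unadjusted limma p under 0.05, open grey points do not, and bars are list medians; the 8 red points are 2 genes above 0 (Tcf7, Bcl11b) and 6 below 0.

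Genes of residency and homing (23 tested, median 0.11) included 2 lower ones at an unadjusted p of 0.05. Gpr55, a lipid receptor of intraepithelial lymphocytes and other cells, was listed at 97.9, 74.4, 78.5 and 98.3 in Penk-/- and 168, 123, 124 and 160 in Penk+/+ libraries. These groups did not overlap, as was so for 5.63% of all genes tested (log2 difference -0.71, adjusted p = 0.339 by limma). The exact permutation p of 0.0286, the smallest possible, is that of any groups without overlap. Il15, a survival factor made by epithelium and myeloid cells, had a log2 difference of -0.24 (unadjusted p = 0.0358, adjusted p = 0.481 by limma). Itga1, an integrin chain also made by smooth muscle, had the highest mean of the list, 3751 ± 441 and 3541 ± 597 (SD, n = 4).

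Among transcription factors (10 tested, median 0.21), Prdm1, which encodes Blimp-1 of tissue-resident and effector lymphocytes and of plasma cells and epithelium, was at 198, 189, 162 and 172 in Penk-/- and at 275, 324, 336 and 209 in Penk+/+ libraries. All Penk-/- values were below the lowest Penk+/+ value (log2 difference -0.64, unadjusted p = 0.0025, adjusted p = 0.339 by limma). Ikzf2, the Helios gene, also had groups that did not overlap (log2 difference -0.38, adjusted p = 0.353 by limma), as had 5.63% of all genes tested. Tcf7 and Bcl11b, factors of T cells and of other tissues, had log2 differences of 0.32 and 0.31 (adjusted p = 0.483 and 0.452 by limma). Tbx21 and Eomes, the T-box factors that drive granzyme and perforin genes, had means from 2.31 to 4.36 and were not tested. Runx3, the factor of the CD8 lineage, was at 61.8 ± 28.2 and 48.3 ± 15.7 (SD, n = 4). Zbtb7b, which is also expressed outside T cells, had the highest mean of the list, 9051 ± 1264 and 9394 ± 1214.

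Ligands by which epithelium and antigen-presenting cells engage these lymphocytes (15 tested, median -0.10) were mostly abundant. Cdh1, the E-cadherin to which the Itgae integrin binds, had the highest mean, 57721 ± 7688 against 65844 ± 6296 (SD, n = 4). Btnl4 and Btnl6, butyrophilin-like proteins of the gut epithelium that act on gamma-delta T cells, were at 3333 ± 791 against 4685 ± 626 and at 3165 ± 974 against 4742 ± 545. Their log2 differences were -0.51 (unadjusted p = 0.0129, adjusted p = 0.408) and -0.63 (unadjusted p = 0.0101, adjusted p = 0.396 by limma). Btnl1 of the same family had a log2 difference of 0.37 (adjusted p = 0.64).

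The 5 genes whose library pattern was most like the mean profile of the 6 tested genes were Cyp7b1 (r = 0.97), Bcl7a (0.95), 1110018N20Rik (0.94), Slc7a3 (0.94) and Msc (0.94), picked as the highest of all other genes tested over 8 libraries. They are given as a description only.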

How the data were processed

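Colonic RNA of 4 Penk-/- and 4 Penk+/+ chimeric mice was sequenced by the authors from poly-A selected, stranded, paired-end libraries. Per the methods and the labels, reads passed FastQC, were aligned and counted with STAR 2.7.8a on GRCm39 (Ensembl release 107) and were normalized with DESeq2 1.30.0. The deposited table holds the authors' normalized counts per gene, a signal in which each read is divided by a size factor of its library; no per-library column was left out. All values (100.0%, tolerance 0.01 of a read) were whole multiples of a step per library, from which reads were recovered (33.1 M to 50.7 M per library).

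Of 26008 identifiers, 25776 matched GENCODE mouse release 39 on GRCm39, which gave symbols, coordinates, canonical transcripts and the 200 bases before their starts. Groups came from the sample titles. The main test was limma 3.58.1 with trend (R 4.3.3) on log2(normalized count + 1) for the 19127 genes with a mean of at least 10, two-sided, with Benjamini-Hochberg adjustment. Fold changes on this scale understate those of low genes, and the fit without this filter gave the values of the 4 low members. Beside it stood exact permutation tests over 70 assignments (scipy 1.17.1) and, on recovered reads, edgeR 4.0.16 (quasi-likelihood, TMM) and DESeq2 1.42.0. Permutation p-values of correlations use all pairings of the 8 libraries. Intervals of reads cover counting error only.

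On simulated data with 18923 genes, limma recovered 55.6% of genes changed by 1 and 94.9% of those changed by 2 on the log2 scale, with 11 false calls. The changed genes were drawn from all levels above the filter. These rates are therefore not those of genes as low as most members, for which none was computed. No pair of libraries agreed within sampling noise (smallest chi-square per degree of freedom 11.2). Replicate numbers did not pair the mice.

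The members and the lists were chosen with earlier results of these data known. From each other list, the gene with the highest mean and those with an unadjusted p under 0.05 were named by rule; all further genes named from these lists (such as Lyst, Cd3d, Cd3e, Cd3g, Gzmm, Ctsw, Runx3 and Btnl1) were chosen after their values were seen. Listed genes without a matching row were not analysed here. As alternatives, the pseudocount was set to 0.1 or 8, the filter was dropped or raised to 50, and the trend was left out; the rest were quantile normalization, both count tools, a replicate block, covariates, and libraries left out.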

Additional observations from a re-analysis of the deposited data

Results flagged for a closer look

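In 22 groups of 4 libraries (10 genes and the mean profile, in 2 genotypes), 3 had a highest or lowest library far from the others. A nominal rate of 1 in 20 would give 1.1. The groups share the same mice and the profile is built from 6 of the genes, so no excess can be read from this count. Gzma was highest in Penk-/- replicate 3, at 7.995 against 2.21 to 3.03, a gap of 0.858 of the range of the group. Cd8b1 was highest in Penk+/+ replicate 2, at 7.61 against 3.43 to 4.09, a gap of 0.842. The mean centred log2 profile of the 6 tested genes was highest in Penk-/- replicate 3, at 0.59 against -0.22 to -0.09, a gap of 0.843. Both Gzma and Cd8b1 rest on few reads.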

How the results depend on the processing

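Under 20 alternatives, 0 members passed the adjusted test. Their median log2 difference (0.13) lay between -0.14, without Penk-/- replicate 3 and Penk+/+ replicate 4, and 0.28. The value of -0.14 is over 5 genes, as Gzmb (0.61 there) fell below the level required for testing. Of 123 single-gene values, 117 kept direction and side of the threshold. The others came from leaving out 1 library: Ccl5 lay between -0.078, without Penk+/+ replicate 1, and 0.53, and Itgae between -0.13 and 0.050, above 0 without Penk-/- replicate 1 or 2 or Penk+/+ replicate 1, 2 or 3. The cause was not tested. The 4 members with a mean below 10 were fitted only without the filter, by limma and edgeR, Gzmb could not be tested without Penk-/- replicate 3, and a minimum mean of 50 left Itgae as the only member tested.

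Over all genes, 0 passed the adjusted test in limma (1842 at an unadjusted p under 0.05) and 0 in edgeR, 205 in DESeq2, 1 each with quantile normalization, with the replicate block and with the epithelial and smooth muscle covariate, and 0 to 6 with 1 library left out, the highest without Penk-/- replicate 1. The mean pairwise r of 0.17 was 0.063 after quantile normalization and 0.041 to 0.24 with 1 library left out, the lowest without Penk-/- replicate 3. The cause was not tested.

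Same-numbered libraries had correlations of their deviations from -0.32 to 0.15, and 1 of 8 correlated best with its own number, so the replicate block was kept as an alternative. It gave 0 members and 1 gene of all after adjustment, and 2938 genes instead of 1842 at an unadjusted p under 0.05. Counts of 20 to 96 reads over 8 libraries limit what can be read from Prf1, Gzma, Cd8b1, Nkg7 and Gzmb.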
